A study of Arabidopsis thaliana with 8 samples.

Results

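AT4G22485, AT4G22490, AT5G48490 and AT3G53980 are 4 Arabidopsis thaliana genes of the lipid transfer protein type, taken by locus symbol from the probe-to-gene table of the array. Each was found with 1 probe set of its own, among 16418 genes with a probe set that names them alone. They were picked with the comparison of fbn5-1 and wild type arrays already known, so their differences between the labels are given as a description, without a test. Leaves of Col-0 plants were profiled on 8 one-colour arrays, 4 labelled wild type (control plants) and 4 labelled fbn5-1. The mutant carries a T-DNA insertion in FBN5, which encodes a plastid lipid-associated fibrillin. All plants were untreated and 3 weeks old, and had grown at 25 °C and 60% humidity on 0.5x MS medium with 1% sucrose, under days of 16 h and nights of 8 h. It is 1 insertion line, and whether plants were pooled for an array is not given in the sources used here.

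Lipid transfer proteins are small secreted proteins with a cysteine-rich helical fold around a cavity that can hold fatty acids and other lipids. They share this fold with seed storage albumins and with bifunctional inhibitors of proteases and amylases. Members of the family are known from the deposition of cutin, wax and suberin, and DIR1 is known for systemic acquired resistance, in which a locally infected leaf protects distant ones. AT5G48490 is the gene known as DIR1-like. AT4G22485, AT4G22490 and AT3G53980 belong to the inhibitor, lipid transfer and albumin superfamily. RefSeq gene order (assembly TAIR10.1) places AT4G22485 and AT4G22490 next to each other on chromosome 4, with 0 genes between them. AT5G48490 lies on chromosome 5 and AT3G53980 on chromosome 3.

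Values are log2 signals as deposited, 1 per probe set and array. Only probe sets averaging more than the 40th percentile over the 8 arrays, log2 2.79, entered the test, and a probe set was called at a limma adjusted p under 0.05. Over all 17147 tested probe sets, 16.8% were called, 8.22% as higher under the fbn5-1 label and 8.55% as lower. The targeted gene FBN5 was not lower under the fbn5-1 label. Its signal was 3.54, 3.35, 3.43 and 5.15 on wild type arrays 1 to 4 and 4.71, 4.52, 4.76 and 4.58 on fbn5-1 arrays 1 to 4, so that only wild type array 4 made the labels overlap. The difference was 0.78 (SE 0.36, limma adjusted p = 0.173), and without wild type array 4 it was 1.20 and called higher (SE 0.11, limma adjusted p = 0.000534; 0.000534 to 0.338 over its 17 alternatives). Where its probes lie relative to the insertion is not given in the sources used here, and arrays are called by their labels. Wild type array 4 stood apart from the other arrays of its label. There, 1130 tested probe sets (6.59%) lay over 1 log2 unit from the mean of the other 3, against 60 to 287 for each of the other 7 arrays, and FBN5 was highest. The leaf enzyme RCA, Rubisco activase, lay between 10.87 and 11.08 on all 8 arrays. Only 5 of the 28 cell type markers listed had a probe set of their own, and 0 of these 5 were called by limma (0 also by an unadjusted p under 0.05). The 3 markers of epidermis, a cell layer where lipid transfer proteins are often made, had none.

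AT4G22485 had a log2 signal of 5.08, 7.45, 6.27 and 2.32 on wild type arrays 1 to 4, and of 8.23, 8.75, 8.45 and 8.43 on fbn5-1 arrays 1 to 4. The 4 fbn5-1 arrays lay close together and above every wild type array, while the wild type arrays were spread widely, with array 4 below the filter value of 2.79. The means were 5.28 ± 2.20 and 8.47 ± 0.21 (SD, n = 4), a difference of 3.18 (SE 0.90). Without wild type array 4 the difference was 2.20 on the log2 scale, or 4.59-fold, in place of 9.09-fold. In leaf RNA, a change in the number of cells that express a gene and a change in RNA per cell cannot be told apart.

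AT4G22490, the next gene, had 5.13, 6.65, 5.19 and 2.01 on the wild type arrays and 7.09, 7.48, 7.73 and 7.87 on the fbn5-1 arrays. Again the labels did not overlap, array 2 was the highest and array 4 the lowest of the wild type arrays, and array 4 was below the filter value. The means were 4.75 ± 1.95 and 7.54 ± 0.34 (SD, n = 4), a difference of 2.80 (SE 0.81), and of 1.89 without wild type array 4.

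AT5G48490, the DIR1-like gene, had 5.58, 6.45, 6.60 and 4.36 on the wild type arrays and 7.94, 7.53, 8.20 and 8.40 on the fbn5-1 arrays. The labels did not overlap here either, and wild type array 4 was again the lowest, though less far from the others and above the filter value. The means were 5.75 ± 1.03 and 8.02 ± 0.38 (SD, n = 4), a difference of 2.27 (SE 0.45). Without wild type array 4 it was 1.81, or 3.50-fold in place of 4.82-fold.

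AT3G53980 went another way. Its signal was 7.76, 7.63, 8.07 and 3.65 on the wild type arrays and 6.98, 5.21, 6.70 and 7.90 on the fbn5-1 arrays. Wild type arrays 1 to 3 agreed closely, array 4 was far below them, and the fbn5-1 arrays were scattered below or among the first 3, with array 2 the lowest and array 4 the highest. The means of the labels, 6.78 ± 2.09 and 6.70 ± 1.12 (SD, n = 4), differed by -0.08 (SE 0.97). Without wild type array 4 the difference was -1.12, since the mean of the remaining 3 wild type arrays was 7.82 ± 0.23 (SD).

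Of the 4 members, 3 were therefore higher in the arrays labelled fbn5-1 with no overlap, and AT3G53980 overlapped. Over all tested probe sets, 11.7% had every fbn5-1 array above every wild type array; the members were chosen on this contrast, so nothing is read from their count. In the order of differences among 8889 tested genes, AT4G22485 was at place 2, AT4G22490 at 6, AT5G48490 at 10 and AT3G53980 at 5161.

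**Figure D1:**
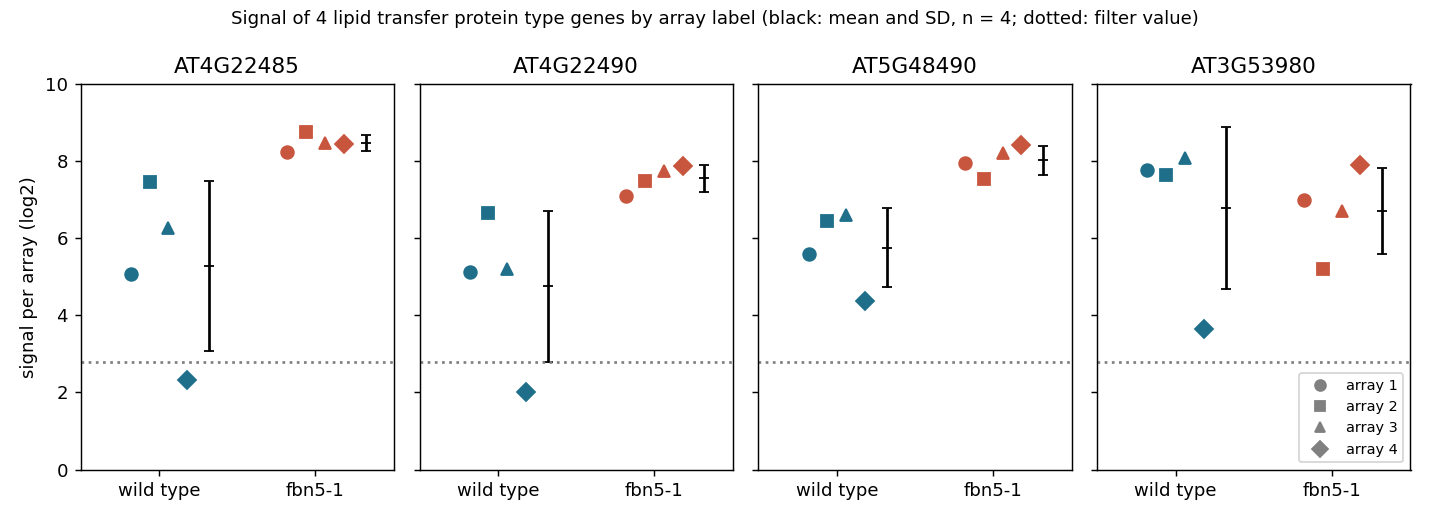
Log2 signal (vertical axis) of the 4 genes on each array, by label (horizontal axis), with 1 symbol per array number, the mean and SD (n = 4) in black and the filter value of 2.79 as a dotted line. Wild type array 4 is the lowest wild type array in all 4 panels, at 2.32, 2.01, 4.36 and 3.65, and AT3G53980 alone overlaps between the labels.

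The neighbours AT4G22485 and AT4G22490 moved together over the arrays. Their wild type arrays had the same order, 4, 1, 3 and 2 from lowest to highest. The 2 probe sets cannot be compared for level, but a change in their difference from array to array can be read. AT4G22485 minus AT4G22490 was -0.05, 0.80, 1.08 and 0.31 on the wild type arrays and 1.14, 1.27, 0.72 and 0.56 on the fbn5-1 arrays. This difference ranged over a little more than 1 log2 unit, while each gene ranged over more than 4 within wild type (5.13 and 4.64). Those wide ranges rest largely on wild type array 4, where both genes lay below the filter value. On wild type arrays 1 to 3, AT4G22485 ran from 5.08 to 7.45 and AT4G22490 from 5.13 to 6.65. Within fbn5-1 the genes ranged over only 0.52 and 0.78, and their difference ran from 0.56 to 1.27. The means of the difference, 0.54 ± 0.50 and 0.92 ± 0.34 (SD, n = 4), overlapped in range, and differed by 0.39 between the labels. That difference is smaller than the SD of the wild type arrays. Within fbn5-1, AT4G22485 was highest on array 2 and AT4G22490 on array 4.

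In the RefSeq table, AT4G22475 overlaps AT4G22485, and 0 genes overlap each of the other 3 members. No probe set names AT4G22475 alone, and the strand of the probes is not given in the sources used here, so signal of the overlapping gene cannot be told apart from that of AT4G22485. Signal shared between AT4G22485 and AT4G22490 through alike sequence was not tested either.

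Likeness of profiles was measured as the root mean square difference between 2 genes over the 8 arrays, each centred on its own mean, among 8888 other tested genes. This is a description of 8 shared arrays, in which both the label and wild type array 4 contribute. AT4G22490 was the gene most like AT4G22485, and AT4G22485 the most like AT4G22490, at 0.42. AT5G48490 was the next for both, at 0.95 and 0.76. These places were kept without wild type array 4, at 0.41 for the neighbours and at 0.59 and 0.49 for AT5G48490. The median over all other genes was 2.09 for AT4G22485 and 1.86 for AT4G22490.

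GH9B13, an endoglucanase-type cell wall enzyme, came next for both neighbours, at 1.08 and 0.81. Its signal was 5.27, 6.19, 5.17 and 3.07 on the wild type arrays and 6.59, 6.07, 6.34 and 6.66 on the fbn5-1 arrays. AT4G29030 followed for AT4G22485, at 1.13, and AT3G16670 for AT4G22490, at 0.96. AT5G15780, an extensin-like protein of the pollen Ole e 1 family, completed the 5 nearest of both, at 1.17 and 0.96. Without wild type array 4, AT5G15780 was at places 6 and 7, GH9B13 at 33 and 22, AT4G29030 at 79 and AT3G16670 at 478.

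The 5 genes most like AT5G48490 were no members. AT5G15780 was the most like it, at 0.26, with 4.05, 4.68, 4.84 and 3.31 on the wild type arrays and 6.33, 5.72, 6.26 and 6.96 on the fbn5-1 arrays. AT1G05835 and AT3G54400, an aspartyl protease, followed at 0.44 each, AT2G36885 at 0.47 and AT4G29030 at 0.52. Of these, AT5G15780, AT1G05835, AT3G54400 and AT2G36885 were still among the first 5 without wild type array 4, and AT4G29030 was at place 48. Seen from AT5G48490, the neighbours were further away than these, with AT4G22490 at place 45 (0.76) and AT4G22485 at place 159 (0.95). The median over all other genes was 1.33. Places of genes of the type that are no members are not given here, and some may lie closer than the neighbours.

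The other members were not among the genes nearest AT3G53980. They lay at places 5696 (AT5G48490), 8337 (AT4G22490) and 8686 (AT4G22485) of 8888 in likeness to it. The measure also grows with how widely a gene varies, and from the other side the places differed. AT3G53980 was at place 989 for AT4G22485, 845 for AT4G22490 and 7381 for AT5G48490. Without wild type array 4 it was at 8866, 8856 and 8836. The genes most like AT3G53980 were bZIP58, a transcription factor (0.55), AT2G28315, a nucleotide sugar transporter (0.60), AT5G58390, a peroxidase (0.61), TBL36, of a family of wall polysaccharide acetylating enzymes (0.64), and AT4G17470 (0.73). All 5 had their lowest value on wild type array 4. Without that array AT2G28315 was the most like AT3G53980 (0.33), while bZIP58, AT5G58390, TBL36 and AT4G17470 were at places 27, 100, 193 and 678. AT2G28315 had 6.10, 6.12, 6.33 and 3.47 on the wild type arrays and 5.02, 3.98, 5.01 and 5.52 on the fbn5-1 arrays, so that it was low on the same wild type array and lowest on the same fbn5-1 array as AT3G53980.

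**Figure D2:**
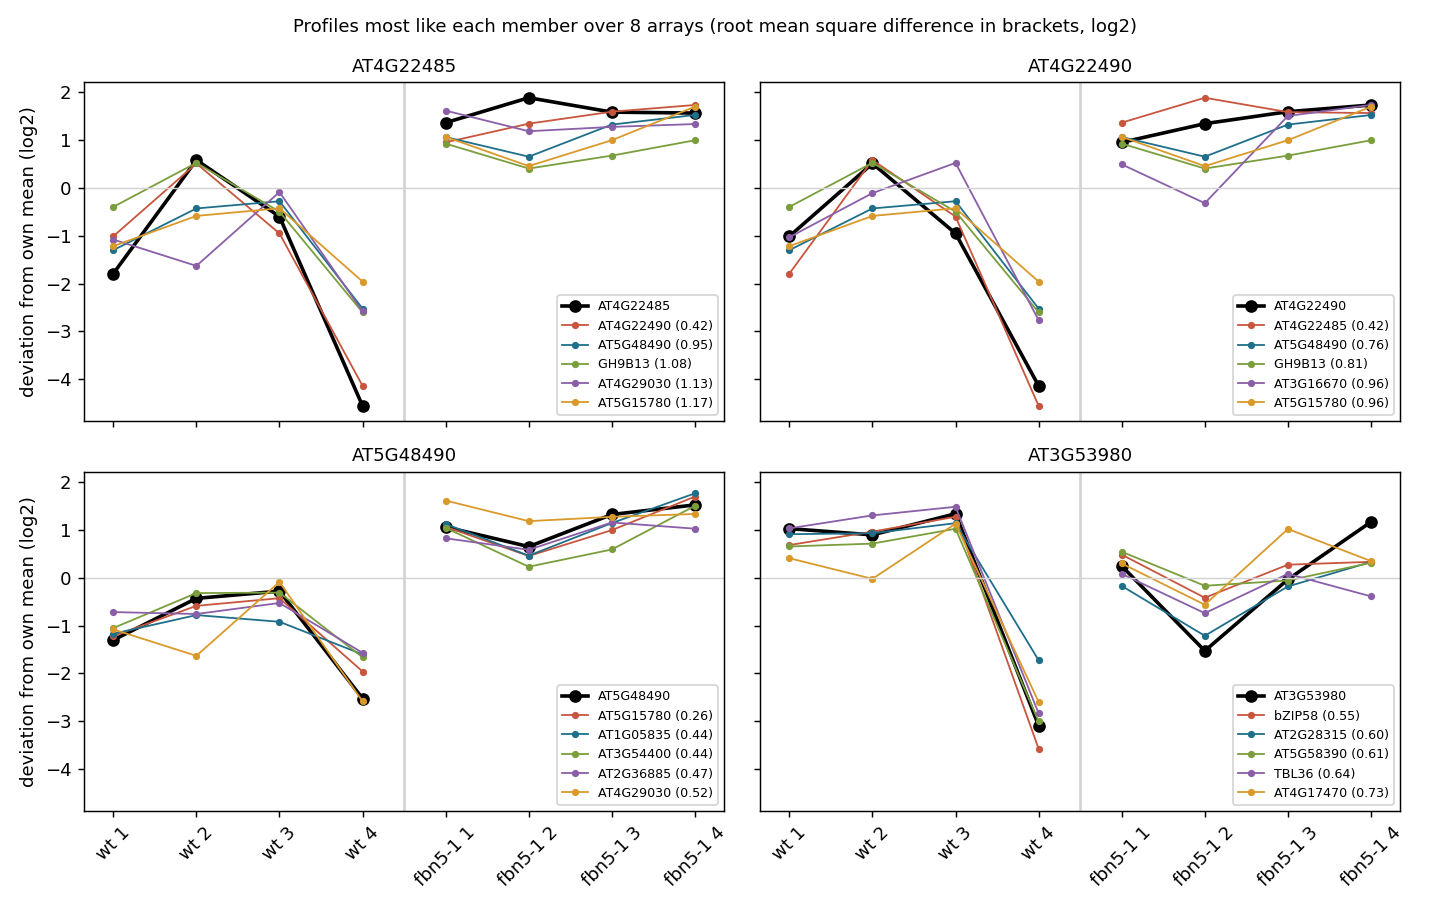
Deviation of log2 signal from each gene's own mean over 8 arrays (vertical axis) for each member (black) and the 5 genes most like it (colours, root mean square difference in brackets), by array (horizontal axis; the order of arrays within a label has no meaning). AT4G22485 and AT4G22490 are each other's nearest (0.42), and in the AT3G53980 panel all genes drop on wild type array 4.

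What all 4 members share is a low signal on wild type array 4. Against the mean of wild type arrays 1 to 3, that array was lower by -4.17 for AT3G53980, -3.95 for AT4G22485, -3.65 for AT4G22490 and -1.85 for AT5G48490. These were the fourth, the eighth and the tenth largest falls of the 17147 tested probe sets for the first 3, and 110 probe sets fell more than AT5G48490. Over all tested probe sets, 43.8% were lowest on this array among the wild type arrays, and 2.91% lay over 1 log2 unit below the mean of the other 3. The root marker PYK10, a beta-glucosidase, was also low there, at 6.84 against 9.23 to 9.70 on wild type arrays 1 to 3, while its fbn5-1 arrays lay between 9.26 and 9.72. The other root marker with a probe set, BGLU21, was at 3.29 on that array, within the 2.43 to 5.88 of the others. Their part in the members' values was not tested.

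The spread of the members within wild type was among the widest on the array. The SD of AT4G22485, AT4G22490, AT3G53980 and AT5G48490 over the 4 wild type arrays exceeded that of 99.8%, 99.6%, 99.7% and 97.9% of tested probe sets (median SD 0.18). Over the fbn5-1 arrays AT3G53980 still exceeded 99.7%, but AT4G22485 only 66.3%, with 89.0% for AT4G22490 and 91.6% for AT5G48490 (median SD 0.168). Wild type arrays 1 to 3 alone had an SD of 1.19 for AT4G22485, 0.86 for AT4G22490 and 0.55 for AT5G48490, each wider than on the 4 fbn5-1 arrays, and of 0.23 for AT3G53980, which was narrower.

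**Figure D3:**
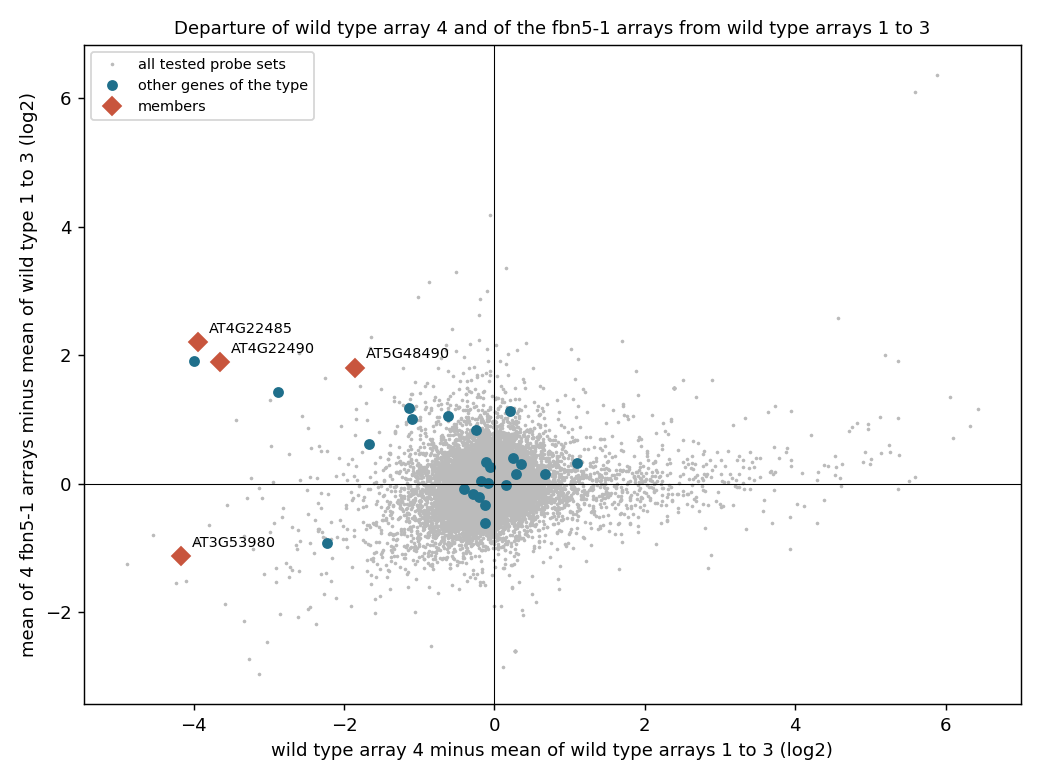
For each tested probe set, wild type array 4 (horizontal axis) and the mean of the 4 fbn5-1 arrays (vertical axis), both minus the mean of wild type arrays 1 to 3 (log2; the axes share this mean, so a slope is not read). The members lie at -4.17 to -1.85 on the horizontal axis, AT4G22485, AT4G22490 and AT5G48490 at 2.20, 1.89 and 1.81 on the vertical axis and AT3G53980 at -1.12.

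Other genes of the type and genes near the members were set beside them. The run of listed lipid transfer protein type genes on chromosome 4 from AT4G22460 to AT4G22666 holds 12 genes, of which 11 had a probe set and 6 were tested, the 2 members included. Of the 4 tested genes that are no members, AT4G22520 rose and 3 were not called. Over all tested probe sets, 8.22% were called higher and 8.55% lower, and with only 4 genes nothing is read from the count. AT4G22520 had 3.46, 4.46, 4.44 and 3.02 on the wild type arrays and 4.87, 4.83, 5.25 and 5.53 on the fbn5-1 arrays, without overlap, a difference of 1.27 (SE 0.33, limma adjusted p = 0.0313). As for the neighbours, wild type array 4 was its lowest. The call was lost when wild type array 1 (adjusted p = 0.0816, the highest) or any single fbn5-1 array was left out. AT4G22470, an extensin-like member of the run, had a difference of 1.08 (SE 0.41, limma adjusted p = 0.103) and was called without wild type array 3 only, among the arrays left out (limma adjusted p = 0.0373; 0.0373 to 0.227 over its 16 alternatives). AT4G22460 and AT4G22640 had differences of -0.06 and 0.09. The 5 genes below the filter included AT4G22505, the next gene of the run after AT4G22490, with means of 0.99 and 1.81.

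Within 5 genes on either side of the members lay 30 other genes in the RefSeq order. Of these, 15 had a probe set of their own, 10 were tested. By limma 0 of the 10 were called higher and 3 lower, against 8.22% and 8.55% of all tested probe sets, and by an unadjusted p under 0.05, 2 were higher and 4 lower, against 15.9% and 16.9%. Next to AT5G48490, DIR1 itself (AT5G48485) has no probe set that names it alone. AT5G48480, a glyoxalase-type protein, had a difference of -0.36 and AT5G48500, on the other side, of 0.43, neither called (limma adjusted p = 0.0998 and 0.0598). Among 17 alternatives each, AT5G48500 was called higher in 3, with 75th percentile centring, with quantile normalization and without wild type array 1 (limma adjusted p = 0.0384, 0.0488 and 0.0476; highest of the 17, 0.12), and AT5G48480 was called lower in 1, without fbn5-1 array 4 (limma adjusted p = 0.0388; highest 0.215).

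The 3 called neighbours all lay beside AT3G53980. AT3G53990, of the universal stress protein family, had 6.40, 6.39, 6.66 and 7.15 on the wild type arrays and 5.68, 5.38, 5.77 and 5.89 on the fbn5-1 arrays. It fell by 0.97 on the log2 scale (SE 0.18, limma adjusted p = 0.00949), with no overlap, and was highest where AT3G53980 was lowest, on wild type array 4. AT3G53970, a proteasome regulator, fell by 0.47 (SE 0.11, limma adjusted p = 0.0191) and AT3G53960, a transporter of the major facilitator superfamily, by 0.51 (SE 0.14, limma adjusted p = 0.0357). AT3G53990 was called with each array left out, and AT3G53970 without each except wild type array 3 (adjusted p = 0.0526). AT3G53960 stayed called when wild type array 3 or 4 was left out, and lost its call with any other array left out (highest adjusted p = 0.09, fbn5-1 array 1). With all arrays kept it also lost its call under quantile normalization (limma adjusted p = 0.0558), 75th percentile centring (0.0567) and the replicate block (0.0641), and it was called in 8 of 17 alternatives.

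**Figure D4:**
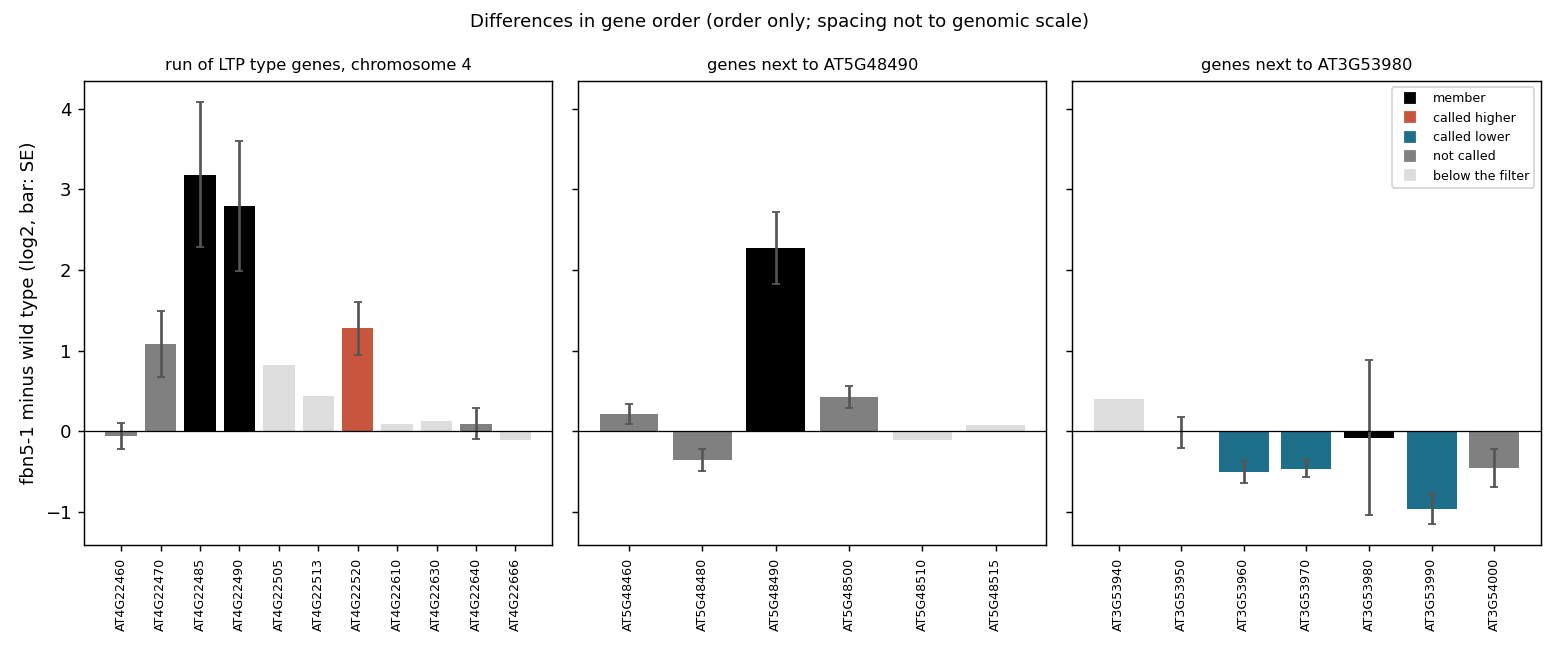
Difference fbn5-1 minus wild type (log2, vertical axis, bars SE) of genes with a probe set in gene order (horizontal axis, order only), for the chromosome 4 run and for the genes next to AT5G48490 and AT3G53980. Members are black, and the coloured genes are AT4G22520 (1.27) and 3 genes beside AT3G53980 (-0.97 to -0.47).

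The other genes of the type came from 4 lists written by hand, 83 genes without the members. Of these, 55 had a probe set of their own, 31 lay below the filter and 24 were tested. Over these 24, 2 rose (8.33%), 1 fell (4.17%) and 21 were not called, with a median difference of 0.16. The 24 include 3, AT5G01870, AT5G62065 and AT1G03103, whose wild type mean lay below the filter value and which were tested only because of their fbn5-1 arrays, and 1, AT4G22460, whose fbn5-1 mean lay there. Over all tested probe sets 8.22% were called higher and 8.55% lower, and the median was -0.015. All 3 calls came from the 12 tested hybrid proline-rich and EARLI1 type genes. Of 2 secreted non-specific lipid transfer protein genes, 6 with a membrane anchor and 4 of the DIR1 type, 0 were called by limma. By an unadjusted p under 0.05, 3 were higher and 0 lower, against 15.9% and 16.9% of all tested probe sets. These 3 were AT4G30880 and, from the genes tested only because of their fbn5-1 arrays, AT5G01870 and AT5G62065. Nothing is therefore read from this count.

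AT3G22142, which encodes a proline-rich protein with a lipid transfer domain, had 6.46, 6.44, 7.21 and 6.08 on the wild type arrays and 8.17, 7.36, 7.33 and 8.15 on the fbn5-1 arrays. The labels did not overlap, and it rose by 1.21 (SE 0.28, limma adjusted p = 0.0205). The call was lost when wild type array 1 or 2 or fbn5-1 array 1 was left out (highest adjusted p = 0.0559). AT2G45180, known as the disease-related lipid transfer protein DRN1, was brightly expressed, with 8.38, 8.62, 8.19 and 8.27 against 7.81, 7.93, 7.56 and 7.87. It fell by 0.57 (SE 0.11, limma adjusted p = 0.0119), and this call held in all 17 alternatives, including each array left out (highest adjusted p = 0.0336).

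AT4G12490, of the EARLI1 and AZI1 family known for priming of defence, had the highest difference of the 24 without being called, 2.91 (SE 1.06, limma adjusted p = 0.0912). Its signal was 6.22, 3.71, 7.09 and 1.68 on the wild type arrays and 6.70, 8.79, 7.41 and 7.45 on the fbn5-1 arrays, so the labels overlapped. It was called in 1 of 17 alternatives, without wild type array 3 (3.72, limma adjusted p = 0.0464; highest 0.202). AT4G12500, of the same family, had 4.65, 2.53, 6.90 and 1.82 against 5.36, 7.88, 5.33 and 5.89, a difference of 2.14 (SE 1.05, limma adjusted p = 0.195). This too was called in 1 of 17, without wild type array 3 (3.12, limma adjusted p = 0.0454; highest 0.392), and the difference ran from 1.17 to 3.12. Both were lowest on wild type array 4, then on array 2, which was the highest wild type array for AT4G22485 and AT4G22490. AT5G01870, known as LTP10, was at 4.30 on wild type array 2 and at 1.75 to 2.47, below the filter value, on the other 3. It had a difference of 1.47 (SE 0.53, limma adjusted p = 0.0893; 0.00969 to 0.197 over its 16 alternatives). A call without wild type array 2 is not counted as a result, since the wild type arrays left then all lie below the filter value and the gene was tested only through the fbn5-1 arrays.

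Of the 24, 10 (41.7%) were lowest on wild type array 4 among the wild type arrays, against 43.8% of all tested probe sets. Of the same 24, 6 (25%) were on array 4 over 1 log2 unit below their average on wild type arrays 1 to 3, against 2.91%. Nothing is read from this share, since it includes AT5G01870, which was tested only because of its fbn5-1 arrays. Its wild type values were 2.47, 4.30, 1.90 and 1.75, so its fall rests on the high array 2. The 6 were AT4G12490 (-3.99), AT4G12500 (-2.87), AT5G05960 (-2.22), AT2G10940 (-1.66), AT5G01870 (-1.14) and AT4G22520 (-1.10). AT5G05960, of the DIR1 type list, resembled AT3G53980 in this, with 4.95, 4.75, 4.56 and 2.53 on the wild type arrays and 3.90, 3.98, 3.76 and 3.71 on the fbn5-1 arrays. Its difference was -0.36 with all arrays (SE 0.47, limma adjusted p = 0.64), and without wild type array 4 it fell by 0.92 (SE 0.13, limma adjusted p = 0.00223; 0.00223 to 0.906 over its 16 alternatives). Without that array 2 of the 24 were called higher and 2 lower, against 9.54% and 12.9% of all tested probe sets.

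**Figure D5:**
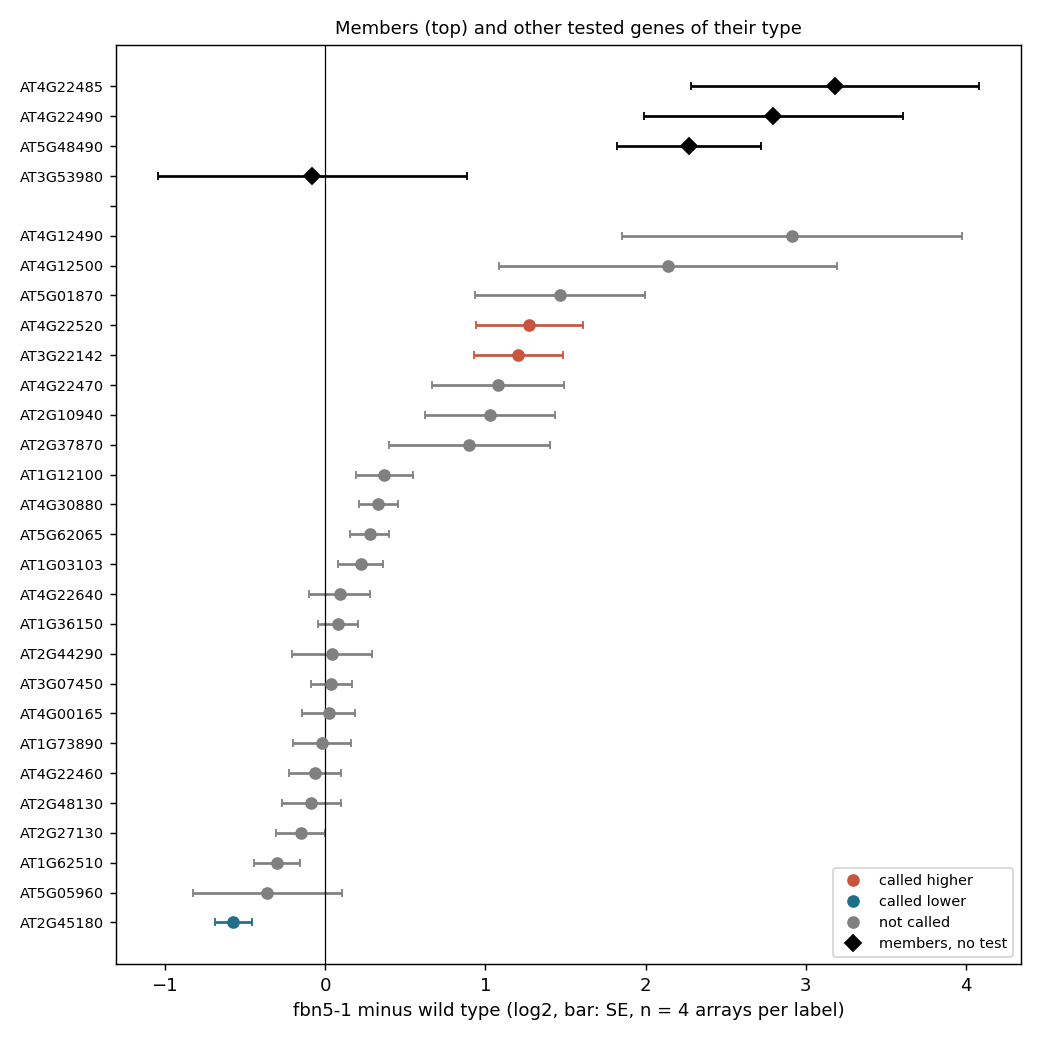
Difference fbn5-1 minus wild type (log2, horizontal axis, bars SE, 4 arrays per label) of the 4 members (black, no test) and of the 24 other tested genes of the type, by limma call. AT4G22520 and AT3G22142 were called higher (1.27 and 1.21) and AT2G45180 lower (-0.57).

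Lists of neighbouring function had few measured genes. Of 29 genes of cutin and wax synthesis and export, 4 had a probe set and 3 were tested, with 2 higher, 0 lower and 1 not called (median 0.82). Over all tested probe sets, 8.22% were called higher and 8.55% lower, and the median was -0.015. The count and the median include AT5G33370, which was tested only through its fbn5-1 arrays, so nothing is read from them. AT2G04570, a GDSL-type lipase, had 3.90, 4.21, 4.49 and 3.69 on the wild type arrays and 4.99, 4.66, 4.60 and 5.31 on the fbn5-1 arrays, and rose by 0.82 (SE 0.21, limma adjusted p = 0.0301). The call was lost when wild type array 1 or 2 or fbn5-1 array 1 or 4 was left out (highest adjusted p = 0.0784). AT5G33370, of the cutin synthase family, was the other called gene, with 1.72, 1.60, 2.60 and 1.91 on the wild type arrays and 6.27, 5.66, 5.91 and 6.79 on the fbn5-1 arrays. All 4 wild type values lay below the filter value, so it was tested only because it is high on the fbn5-1 arrays; its call is no support, and the values are given as a description. AT4G13840, a wax elongation factor, was not called (0.29, limma adjusted p = 0.121). Of the 3, AT2G04570 was lowest on wild type array 4 among the wild type arrays, as the members were, and AT5G33370 and AT4G13840 were not. The remaining gene, WSD1 (AT5G37300), a wax ester synthase, had 2.22, 1.89, 2.54 and 2.39 against 2.96, 3.10, 3.21 and 3.17, a difference of 0.85. It lay below the filter, and was called higher in both settings that tested it, without a filter and with the whole series table (limma adjusted p = 0.00953 and 0.0114). As for AT5G33370, all 4 wild type values lay below the filter value, so these calls of WSD1 are no support either. The 2 factors of the cuticle with a probe set, SHN2 and SHN3, lay below the filter, and 0 of the 19 genes listed for systemic acquired resistance had a probe set of their own.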

How the data were processed

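Total RNA (Trizol) from 8 leaf samples was labelled with biotin from 200 ng, per the labels' protocols, and hybridized to one-colour Affymetrix arrays. The authors deposited log2 signals with 2 decimals, 1 per probe set and array. MAS5 is named in the submitters' processing notes. Background correction, scaling and log base are not given in the sources used here, and log2 was taken from the range of values. The number of arrays limits precision. Nothing says that the 4 arrays per label came from separate plants, so p-values reflect only how far these samples differ, and that spread may be technical.

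Of 28583 probe sets in the series matrix, 16746 list 1 symbol, 758 several and 11079 none; 16601 of the 16746 were found by gene number in the RefSeq table. Genes were represented by their brightest probe set. The 17147 probe sets above the 40th percentile were compared with limma 3.58.1 (R 4.3.3; eBayes with an intensity trend), two-sided, Benjamini-Hochberg adjusted. The script was tested on simulated data.

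The members and gene lists were chosen with earlier results of these data known. Named genes were the members, called genes of their type and of the cuticle list, tested genes within 5 places of a member, and the 5 most alike profiles; uncalled genes were picked with their values in view. Gene functions are background. Product names were not used here. Alternatives were 3 scalings, no filter, a 60th percentile filter, 16 added to the linear signal, no trend, the whole series table, a replicate block and each array left out; likeness without wild type array 4 was added after seeing the data.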

Additional observations from a re-analysis of the deposited data

Results flagged for a closer look

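Of 22 genes checked in each label, 5 had a wild type array farther from the other 3 than Dixon's critical value for 4 samples allows, and in all 5 it was wild type array 4. Chance flags about 1 in 20 groups, and 4 of these 5 genes were named because their profile is like that of the first, so they are not independent of it. AT3G53980 was at 3.65 there, with the nearest wild type array at 7.63. AT2G28315 was at 3.47 against 6.10, AT5G58390 at 3.33 against 6.98, bZIP58 at 1.32 against 5.57 and TBL36 at 2.75 against 6.61. No array labelled fbn5-1 was flagged for these 22 genes. Other genes were not checked, and some of them stood apart as well. On wild type array 4, FBN5 was at 5.15 (nearest 3.54), AT5G05960 at 2.53 (nearest 4.56) and PYK10 at 6.84 (nearest 9.23). AT2G10940 was at 5.27 on fbn5-1 array 4, with the nearest fbn5-1 array at 4.62. The flags therefore do not show that outlying arrays are limited to these genes or to wild type.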

How the results depend on the processing

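The differences of AT4G22485, AT4G22490 and AT5G48490 stayed positive in all 17 alternatives, at 2.49 to 3.26, 2.02 to 2.87 and 1.93 to 2.32 over the 9 that keep all arrays, each lowest with 16 added to the linear signal. Leaving out each array gave 2.20 to 3.91, 1.89 to 3.43 and 1.81 to 2.55. AT3G53980 lay between -0.20 and -0.04 over the 9, and between -1.12 (without wild type array 4) and 0.42 (without fbn5-1 array 2) with an array left out. The neighbours' difference in response was 0.39 to 0.47, and 0.19 to 0.57 with an array left out. The 2876 called probe sets were 1731 with the replicate number as a block and 1736 to 3854 with an array left out. Of other genes of the type, 2 called higher became 0 with the replicate block and 0 to 5 with an array left out, and 1 called lower became 1 to 2. Without wild type array 1 there were 0 higher, and without wild type array 3 there were 5. With no filter AT4G22505 was called as well, but all its values lay below the filter value, so this call is no support. The replicate block also ended the calls of AT2G04570 and AT3G53960. The labels give a replicate number but do not say whether same-numbered arrays belong together. Deviations of same-numbered arrays correlated at 0.16, -0.19, -0.04 and 0 across probe sets, and those of the other pairs at -0.19 to 0.16. These values cannot settle whether the arrays were paired. Signals near the filter value limit the size of the neighbours' change on wild type array 4.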
